A study of Mus musculus with 6 samples.

Results

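The replication-dependent histone genes make up 67 of the 24421 genes in the deposited count table. They were chosen by symbol, as genes of the Hist1, Hist2, Hist3 and Hist4 clusters that encode histone H1, H2A, H2B, H3 or H4. The pseudogene Hist3h2bb-ps was left out, which had 0, 1 and 1 counts in KO and 7, 7 and 9 counts in WT libraries. The set holds 6 H1, 18 H2A, 18 H2B, 12 H3 and 13 H4 genes, of which 54 lie in Hist1 on chromosome 13, 10 in Hist2 on chromosome 3, 2 in Hist3 on chromosome 11 and 1 in Hist4 on chromosome 6. The cells were 3T3-L1, a mouse embryonic fibroblast line used as a preadipocyte model. The groups were Ube3d knockout cells (KO, 3 libraries) and wild-type cells (WT, 3 libraries), both undifferentiated and in log-phase growth. The sources used here give neither how the knockout was made nor whether it is 1 clone. Stranded libraries were made from total RNA after ribosomal RNA depletion, so RNA without a poly(A) tail was not selected against.

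Replication-dependent histone genes are known for short, mostly intronless transcripts that cells make in S phase to package new DNA. Their mRNA ends in a conserved stem-loop instead of a poly(A) tail. The stem-loop is bound by the protein encoded by Slbp, the U7 snRNP pairs with the sequence downstream of it, and CPSF73, the endonuclease encoded by Cpsf3, cuts between them. UBE3D is known as a partner of CPSF73. The comparison of KO with WT therefore asks how transcripts that depend on this endonuclease, gene by gene and by histone type, differ in level without Ube3d.

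The stem-loops of 9 members are shown because they cover the hairpin forms of the genes the results turn on. They were found in GENCODE M21 transcripts (GRCm38) as a 6-base arm, a 4-base loop and the complementary arm, fitting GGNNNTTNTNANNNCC on the transcript's strand. Capitals mark the hairpin, and lower case the 5 bases on each side.
Hist1h4i: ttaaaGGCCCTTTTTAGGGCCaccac
Hist2h4: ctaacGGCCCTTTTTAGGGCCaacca
Hist1h4h: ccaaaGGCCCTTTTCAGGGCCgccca
Hist1h4d: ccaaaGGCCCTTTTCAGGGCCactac
Hist4h4: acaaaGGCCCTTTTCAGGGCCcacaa
Hist1h4j: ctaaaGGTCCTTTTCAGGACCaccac
Hist1h3f: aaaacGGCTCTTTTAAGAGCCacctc
Hist1h2bp: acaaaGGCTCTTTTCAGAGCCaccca
Hist2h2ac: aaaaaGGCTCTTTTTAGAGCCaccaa
The hairpin of Hist1h4i lies at chr13:22040966-22040981 on the minus strand, and that of Hist2h4 at chr3:96262939-96262954 on the minus strand. The hairpins of Hist1h4h, at chr13:23531458-23531473, Hist1h4d, at chr13:23581950-23581965, and Hist1h4j, at chr13:21735437-21735452, are on the plus strand. That of Hist4h4 lies at chr6:136803998-136804013 on the minus strand. The plus strand carries the hairpin of Hist1h3f at chr13:23544932-23544947 and of Hist1h2bp at chr13:21787923-21787938, and the minus strand that of Hist2h2ac at chr3:96220418-96220433.

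All 67 members had a GENCODE transcript, and 46 of them held the pattern, which 0.143% of 55341 GENCODE genes hold. Some of the other members have a transcript that does not cover all their counted bases. Hist1h2ak, for example, has 393 of 536 counted bases in its transcript, and Hist2h2bb 381 of 493. Sequence outside the transcripts was not searched, so a missing match does not show that a gene lacks the stem-loop. In 45 of the 46 the stem-loop lay inside the exons over which reads were counted, with a median of 5 counted bases beyond it. The counted exons of these genes thus end close to the stem-loop. The exception was Hist1h4j, whose stem-loop lies past its counted end. Hist1h2be had the longest counted stretch past its stem-loop, at 1861 bases. The GENCODE transcript of a member can run further than its counted exons, and reads beyond the counted end were not analysed here.

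The libraries held 25267434, 27214306 and 28042970 gene counts in KO and 23767181, 29389480 and 26862276 in WT. The targeted gene, listed under its older symbol Ube2cbp, had 1.89 ± 0.31 CPM in KO and 6.79 ± 0.80 CPM in WT (SD, n = 3 each; log2 fold change −1.86, SE 0.15, edgeR adjusted p = 6.58e-18). Which part of it was removed is not stated. CPM is the count scaled to library size with edgeR's TMM factors, and log2 fold changes are KO over WT. The ribosomal RNA precursor gene Rn45s took 9.68% to 10.2% of counts in KO and 7.28% to 8.91% in WT. The 10 fibroblast markers summed to 13738 to 14096 CPM in KO and 15676 to 16126 CPM in WT, with 2 higher and 7 lower, and none at 0. Over all tested genes 30.3% were higher and 31.2% lower. Single markers differed more than the sum, in both directions. Col1a1 had a mean of 706 CPM in KO and 1602 CPM in WT, and Dlk1 1868 CPM in KO and 863 CPM in WT. Epithelial markers summed to 0.354 to 0.697 CPM in KO and 0.428 to 0.707 CPM in WT, with Epcam and Esrp1 at 0. Endothelial markers summed to 1.45 to 2.42 CPM in KO and 0.600 to 1.08 CPM in WT, and macrophage and leukocyte markers to 6.45 to 7.30 CPM in KO and 4.67 to 6.16 CPM in WT, with Adgre1 and Cd3e at 0. Mature adipocyte markers summed to 95.2 to 101 CPM in KO and 101 to 104 CPM in WT, with Lep and Retn at 0. Nearly all of this sum was Adipor2, at a mean of 97.0 CPM in KO and 99.2 CPM in WT. Fabp4 had a mean of 0.999 CPM in KO and 3.59 CPM in WT. The means of Adipoq, Cfd, Cidec and Plin1 were at most 0.0482 CPM in either group. The part of all these markers in the histone results was not tested.

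The total of histone counts did not differ between KO and WT beyond the spread between libraries. The 67 members took 0.535%, 0.569% and 0.565% of all gene counts in the KO libraries and 0.602%, 0.557% and 0.546% in the WT libraries, so the groups overlapped. Their summed level was 5314.5, 5677 and 5641 CPM in KO and 6129, 5515 and 5475 CPM in WT. The difference of the log2 sums was −0.04 with an SE of 0.06. KO replicate 1 and WT replicate 1 stood apart from the other libraries: KO replicate 1 was the lowest library for 28 of the 55 tested members and WT replicate 1 the highest for 43.

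Individual genes moved in both directions within this steady total. Of the 67 members, 55 passed the count filter, and 26 of these differed between KO and WT, 9 higher and 17 lower (edgeR quasi-likelihood test, adjusted p under 0.05). That is 47.3% of the tested members, while 61.4% of all 12947 tested genes were called, 30.3% higher and 31.2% lower. The median log2 fold change of the 55 was −0.05, and that of all tested genes 0.00. Most changes were small: 25 of the 55 lay within 0.1 of 0 on the log2 scale, and 5 lay past 0.5. The KO libraries lay all above the WT libraries for 10 members and all below for 15, and overlapped for 30. Over all tested genes 64.3% did not overlap. Without KO replicate 1 and WT replicate 1 the calls were 13 higher and 14 lower.

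Near-identical copies limit what can be said of one gene. Windows of 50 bases were taken from the counted sequence that lies inside a member's GENCODE transcript, and are called counted windows here. Counted bases outside it, as in Hist1h2ak and Hist2h2bb, were left out. Over the tested members, the median share of these windows that also occur in another histone transcript was 55.4%. It was 66.3% for H2A, 64.4% for H3, 51.0% for H4, 47.9% for H2B and 19.1% for H1. The sources used here give neither the read length nor how reads with several alignments were treated, and the split of reads between copies is uncertain. The sums per type do not depend on how the counted reads were split between copies of a type, but they do depend on whether shared reads were counted.

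The balance between types in the counted reads differed between KO and WT, with a smaller share of H2A and a larger share of H4. The sums and shares hold no counts of 3 H2A, 2 H2B, 2 H3 and 1 H4 members, which share counted positions with other members. The levels of these copies are unknown, so the balance holds for the counted copies only. H2A, which forms the outer part of the nucleosome core with H2B, summed to 556, 614 and 611 CPM in KO and 725, 657 and 651 CPM in WT. All KO libraries lay below all WT libraries, and the KO mean was 12.4% below the WT mean (log2 difference −0.19, SE 0.07). Without KO replicate 1 and WT replicate 1 the log2 difference was −0.10. H4, which pairs with H3 in the centre of the nucleosome, summed to 1828, 1988 and 1950.1 CPM in KO and 2020.0, 1831 and 1798 CPM in WT. These groups overlapped (log2 difference 0.03, SE 0.06, and 0.11 without KO replicate 1 and WT replicate 1).

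As a share of all histone counts of the same library, H4 took 34.4%, 35.0% and 34.6% in KO and 33.0%, 33.2% and 32.8% in WT. H2A took 10.5%, 10.8% and 10.8% in KO and 11.8%, 11.9% and 11.9% in WT. For both types the KO and WT shares did not overlap. The mean share of H4 was 34.7% ± 0.32 in KO and 33.0% ± 0.19 in WT, 1.66 percentage points higher, and that of H2A 10.7% ± 0.21 in KO and 11.9% ± 0.05 in WT, a difference of −1.18 points (SD, n = 3 each). The shares of a library sum to its whole, so they are not independent of each other.

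The other types overlapped between the groups on either scale. H2B summed to 1273, 1334 and 1320 CPM in KO and 1426, 1301 and 1289 CPM in WT. H3 summed to 595, 664 and 647 CPM in KO and 742, 633 and 611 CPM in WT. The linker histone H1 summed to 1063, 1077 and 1114 CPM in KO and 1215, 1093 and 1126 CPM in WT. In every type WT replicate 1 had the highest sum. With 3 libraries against 3, an exact two-sided permutation test cannot give a p below 0.10, so no p is given for sums and shares. Bulk libraries cannot tell a smaller share of cells in S phase from less histone RNA per cell.

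**Figure D1:**
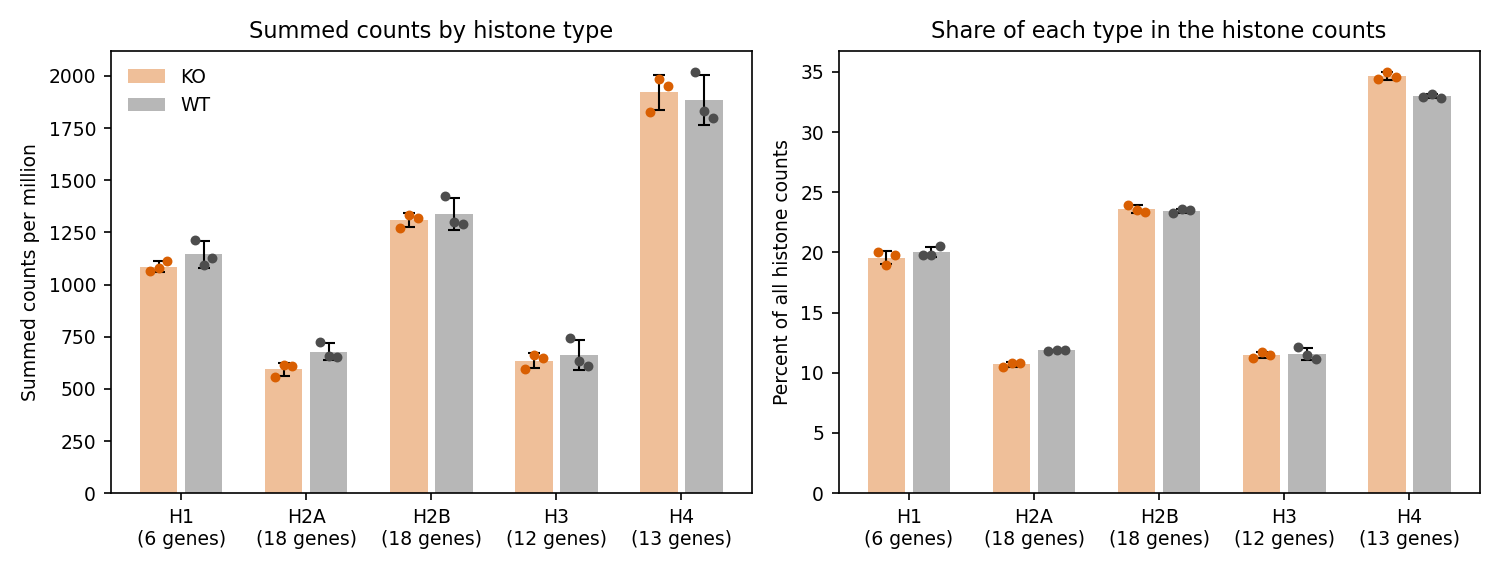
Summed CPM by histone type (left) and each type's percent of all histone counts of its library (right), for KO and WT. Bars are means, error bars SD and points the 3 libraries of each genotype. H2A lies lower in KO on both scales, and the H4 shares of KO, 34.4% to 35.0%, lie above those of WT, 32.8% to 33.2%.

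All H4 copies encode the same protein. Of the 12 tested copies, 3 rose, 3 fell and 6 were not called, with a median log2 fold change of −0.01. The called share of 50% was below the 61.4% of all tested genes, of which 30.3% rose and 31.2% fell. The 3 that rose added 120.8 CPM to the mean of KO over that of WT, the 3 that fell took away 81.4 CPM, and the 6 others differed by −0.52 CPM in sum.

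Hist1h4i had the smallest adjusted p of all members. Its level was 101, 105 and 108 CPM in KO and 70.7, 62.3 and 60.3 CPM in WT. Every KO library lay above every WT library, a 1.63-fold difference (log2 0.70, SE 0.04, edgeR adjusted p = 8.41e-22). Of its counted 50-base windows, 55.4% also occur in other histone transcripts.

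Hist2h4 followed, at 156, 167 and 158 CPM in KO and 122, 117 and 113 CPM in WT. The groups did not overlap, and the log2 fold change was 0.45 (SE 0.03, edgeR adjusted p = 1.17e-19). Only 4.86% of its counted windows occur in another histone transcript. Hist1h4h had 199, 210.4 and 211 CPM in KO and 187, 169 and 150.4 CPM in WT (log2 0.29, SE 0.09, edgeR adjusted p = 0.0442). Its call passed the threshold in 10 of 14 alternatives, and was lost without KO replicate 1, 2 or 3 or WT replicate 2.

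Hist1h4j had 68.7, 79.0 and 80.5 CPM in KO and 66.4, 56.0 and 50.3 CPM in WT. The groups did not overlap, but the gene missed the threshold (log2 0.41, SE 0.13, edgeR adjusted p = 0.0516), which it passed in 9 of 14 alternatives, with adjusted p between 5.86e-13 and 0.144. Hist1h4d had the most counts per kilobase of all members, at 1039 CPM per kilobase in KO and 1148 in WT. In the libraries it had 361, 392 and 395 CPM in KO and 444, 399 and 425 CPM in WT. It fell by 0.14 on the log2 scale (SE 0.03, edgeR adjusted p = 3.70e-04). Without KO replicate 1 and WT replicate 1 together its adjusted p was 0.0642, in a range from 1.04e-06 to 0.0642 over 14 alternatives.

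Hist4h4, the lone member of its cluster, had 134, 138 and 134 CPM in KO and 184, 160.3 and 151 CPM in WT. All KO libraries lay below the WT libraries (log2 −0.28, SE 0.08, edgeR adjusted p = 0.0190). None of its counted windows occurs in another histone transcript. Its adjusted p was 0.0567 without KO replicate 1 and 0.0779 without KO replicate 3, against 1.82e-17 to 0.0779 over 14 alternatives. The third copy that fell was Hist1h4b (log2 −0.09, SE 0.03), whose groups overlapped. Its call held in 11 of 14 alternatives, and was lost without KO replicate 1 and without WT replicate 1.

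**Figure D2:**
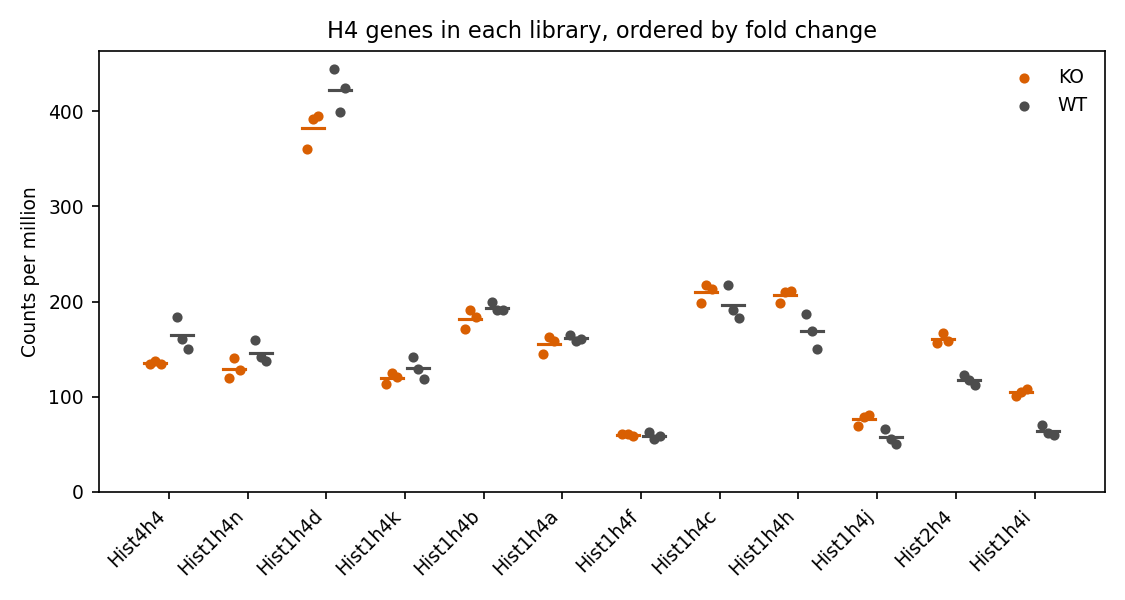
CPM of the 12 tested H4 genes, with a point per library, a line at each mean, and KO left of WT. Genes are ordered by log2 fold change. Hist2h4 and Hist1h4i, at the right, lie higher in all KO libraries, and Hist1h4d is the copy with the most counts.

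Of 10 tested H3 genes, 3 rose and 2 fell, with a median log2 fold change of −0.06. Over all tested genes 30.3% rose and 31.2% fell. Hist2h3b had 74.4, 81.5 and 85.6 CPM in KO and 72.5, 62.0 and 62.0 CPM in WT (log2 0.30, SE 0.06, edgeR adjusted p = 1.73e-04). The median of the other tested genes on its chromosome, 3, was also 0.30. Hist1h3a had 18.5, 19.3 and 18.5 CPM in KO and 17.4, 14.8 and 13.1 CPM in WT (log2 0.32, SE 0.08, edgeR adjusted p = 2.11e-04).

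Both of these H3 genes were higher in every KO library than in any WT library. Hist1h3f was the least abundant tested H3 gene, at 2.83 CPM per kilobase in KO and 1.85 in WT. It had 2.91, 1.94 and 2.81 CPM in KO and 1.84, 1.78 and 1.38 CPM in WT (log2 0.61, SE 0.20, edgeR adjusted p = 0.00643). Without WT replicate 3 its adjusted p was 0.0521, in a range from 0.00147 to 0.0521 over 14 alternatives.

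The 2 that fell were Hist1h3b (log2 −0.24, SE 0.05) and Hist1h3d (log2 −0.21, SE 0.04). Hist1h3e had the most counts per kilobase of the H3 genes, 359 CPM per kilobase in KO and 374 in WT. Its libraries had 155, 177 and 174 CPM in KO and 201, 169 and 157 CPM in WT, which overlap, and it was not called (log2 −0.05, SE 0.12, edgeR adjusted p = 0.732). Without KO replicate 1 and WT replicate 1 its log2 fold change was 0.10.

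H2A genes moved in a single direction where they moved. Of 13 tested, 7 fell, none rose and 6 were not called, with a median log2 fold change of −0.23. The share that fell was 53.8%, while 31.2% of all tested genes fell. The KO libraries lay below all WT libraries for the same number, 7 genes, and above for 0. Over all tested genes they lay below for 32.5% and above for 31.8%. The 7 that fell account for −75.3 CPM of the difference between the mean sums, and the 6 others for −8.87 CPM.

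Hist1h2an had 44.4, 49.8 and 45.9 CPM in KO and 67.5, 62.8 and 62.5 CPM in WT. Every KO library was lower than every WT library (log2 −0.46, SE 0.05, edgeR adjusted p = 5.77e-14). Hist1h2ai, at 22.9, 25.3 and 26.5 CPM in KO and 37.9, 32.9 and 31.6 CPM in WT, fell by 0.45 on the log2 scale (SE 0.06, edgeR adjusted p = 3.02e-09). The larger Hist1h2ak, at 98.3, 102 and 103 CPM in KO and 131, 117 and 121 CPM in WT, fell by 0.28 (SE 0.04, edgeR adjusted p = 4.77e-10).

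Of counted windows inside the GENCODE transcripts, 85.8% for Hist1h2an, 90.1% for Hist1h2ai and 52.3% for Hist1h2ak also occur in other histone transcripts. Each of these transcripts holds 393 counted bases, of 447, 448 and 536 in the same order. Hist1h2ah, at 32.0, 37.5 and 34.8 CPM in KO and 46.5, 38.6 and 41.8 CPM in WT, fell by 0.28 on the log2 scale (SE 0.06, edgeR adjusted p = 5.02e-05). Hist2h2ab, the least abundant tested H2A gene per kilobase, had 6.33, 5.90 and 7.47 CPM in KO and 10.5, 8.86 and 10.0 CPM in WT. Its groups did not overlap (log2 −0.57, SE 0.10, edgeR adjusted p = 2.65e-06).

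The other H2A genes that fell were Hist1h2ab (log2 −0.23, SE 0.04) and Hist1h2ad (log2 −0.23, SE 0.09). Hist1h2ad passed the threshold in 10 of 14 alternatives, and was lost without KO replicate 1 and without WT replicate 1. The H2A gene with the most counts per kilobase, Hist2h2ac, had 124, 132 and 133 CPM in KO and 136, 124 and 126 CPM in WT. Its groups overlapped and it was not called (log2 0.01, SE 0.03, edgeR adjusted p = 0.736).

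H2B had the lowest share of called genes of the 5 types, 33.3%, while 61.4% of all tested genes were called, 30.3% higher and 31.2% lower. Of 15 tested, 2 rose, 3 fell and 10 were not called, with a median log2 fold change of −0.03, and the widest range of any type, from −0.81 to 1.38. Hist2h2bb had the most counts per kilobase, 937 CPM per kilobase in KO and 923 in WT. It held 34.7% of the H2B counts and had 462, 462 and 461 CPM in KO and 469.6, 438 and 458 CPM in WT. These levels overlap (log2 0.02, SE 0.03, edgeR adjusted p = 0.546), and none of its counted windows occurs in another histone transcript.

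The genes at either end of the range were H2B genes of low level. Hist1h2bp had 7.51, 7.26 and 6.73 CPM in KO and 13.7, 12.4 and 11.7 CPM in WT. It was 1.76-fold lower in KO, with no overlap (log2 −0.81, SE 0.09, edgeR adjusted p = 1.19e-11), and was called in all 14 alternatives. Hist2h2be had 2.75, 2.42 and 2.31 CPM in KO and 0.814, 0.909 and 1.12 CPM in WT, from 70, 66 and 65 counts in KO and 19, 27 and 30 counts in WT. The rise was 2.61-fold (log2 1.38, SE 0.22, edgeR adjusted p = 1.83e-07). Its counted length is 2618 bases, and no stem-loop of the pattern was found in its transcript.

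Hist1h2ba, known as a testis H2B gene, had 8.29, 9.24 and 9.07 CPM in KO and 7.41, 6.36 and 5.23 CPM in WT (log2 0.49, SE 0.11, edgeR adjusted p = 6.49e-05). Hist1h2bb had 70.7, 77.9 and 76.5 CPM in KO and 97.4, 87.2 and 87.2 CPM in WT (log2 −0.27, SE 0.04, edgeR adjusted p = 6.53e-08). Neither gene's KO libraries overlapped its WT libraries. Hist1h2bn fell by 0.09 (SE 0.04, edgeR adjusted p = 0.0392), and its call held in 6 of 14 alternatives.

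A few tested members have several counted exons or a long counted length. Besides Hist1h2bp, with 3 exons, and Hist2h2be, these were Hist1h4n, Hist1h2bc and Hist1h2be. Hist1h4n had 3041, 3846 and 3601 counts in KO and 3715, 4223 and 3673 in WT. Hist1h2bc had 2693, 3222 and 3257 counts in KO and 2954, 3499 and 2977 in WT. Hist1h2be, counted over 5 exons and 2510 bases, had 690, 778 and 781 counts in KO and 709, 777 and 671 in WT. None of these 3 was called (log2 −0.17, −0.06 and 0.04), and their groups overlapped.

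H1 genes, which encode the linker histones that bind DNA between nucleosomes, share the fewest windows with each other. Of 5 tested, 1 rose and 2 fell, while 30.3% of all tested genes rose and 31.2% fell. Hist1h1a had 65.3, 72.6 and 72.0 CPM in KO and 56.8, 51.2 and 54.3 CPM in WT (log2 0.37, SE 0.04, edgeR adjusted p = 2.72e-11). It was the least abundant tested H1 gene per kilobase. Hist1h1b had 242, 243 and 252 CPM in KO and 303, 275 and 285 CPM in WT (log2 −0.22, SE 0.03, edgeR adjusted p = 3.49e-09).

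For both Hist1h1a and Hist1h1b the groups did not overlap, and none of their counted windows occurs in another histone transcript. Hist1h1e, the H1 gene with the most counts per kilobase, had 281, 268 and 292 CPM in KO and 325, 291 and 306 CPM in WT. It fell by 0.13 (SE 0.03, edgeR adjusted p = 5.57e-04), with an overlap between the highest KO and the lowest WT library. Hist1h1c and Hist1h1d were not called (log2 −0.05 and 0.01).

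**Figure D3:**
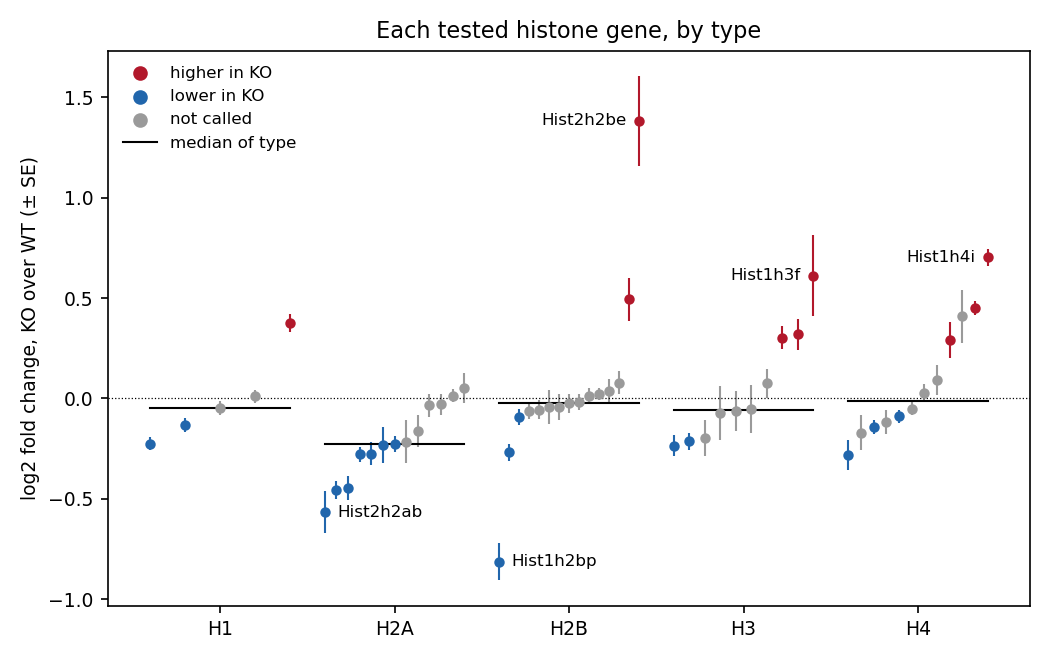
Log2 fold change (KO over WT) of each of the 55 tested members with its SE, by histone type and sorted within it. Horizontal lines mark the median of each type, and colours the edgeR call. No H2A gene was called higher, and Hist2h2be and Hist1h2bp mark the ends of the range.

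The summed level was higher in KO for Hist2 and overlapped between the groups for Hist1. Hist1, which holds most members, summed to 4323, 4653 and 4623 CPM in KO and 5095, 4569.8 and 4521 CPM in WT, with overlapping groups (log2 difference −0.06, SE 0.06, and 0.02 without KO replicate 1 and WT replicate 1). Hist2 summed to 826, 850.2 and 848 CPM in KO and 812, 751 and 769 CPM in WT, all KO libraries above all WT libraries (log2 difference 0.11, SE 0.04). Of the 6 tested Hist2 genes, 3 rose and 1 fell, and of the 47 tested Hist1 genes, 6 rose and 15 fell, while over all tested genes 30.3% rose and 31.2% fell. Hist3 summed to 30.6, 36.0 and 36.0 CPM in KO and 37.3, 34.3 and 33.9 CPM in WT, which overlap.

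The genes around Hist2 were higher in KO too. Of 637 other tested genes on chromosome 3, 447 were called higher and 59 lower, with a median log2 fold change of 0.30. Within 1 Mb of the cluster 41 of 54 tested genes were higher and 3 lower, with a median of 0.37. Of the Hist2 genes that rose, Hist2h3b had a log2 fold change of 0.30, Hist2h4 0.45 and Hist2h2be 1.38. Hist2h2ab fell (log2 −0.57). Less the chromosome's median, the Hist2 difference was −0.19. Around Hist1, 4 of 19 tested genes within 1 Mb were higher and 5 lower, with a median of −0.06, and the median of 459 other genes on chromosome 13 was −0.04. On chromosome 6, which carries Hist4h4, 135 of 641 other tested genes were higher and 277 lower, with a median of −0.09. Within 1 Mb of Hist4h4, 4 of 11 tested genes were higher and 5 lower, with a median of 0.03. Less the median of chromosome 6, the Hist4 difference was −0.19, against −0.28.

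In Hist1 the members at the high-coordinate edge rose together. Hist1h3a, Hist1h1a and Hist1h2ba, between bases 23761885 and 23934156 of chromosome 13, are the last 3 tested genes of the cluster, and all were higher in KO. Their neighbour on the inner side, Hist1h4a, was not called (log2 −0.05). This run was noticed after the values were seen and has no test.

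**Figure D4:**
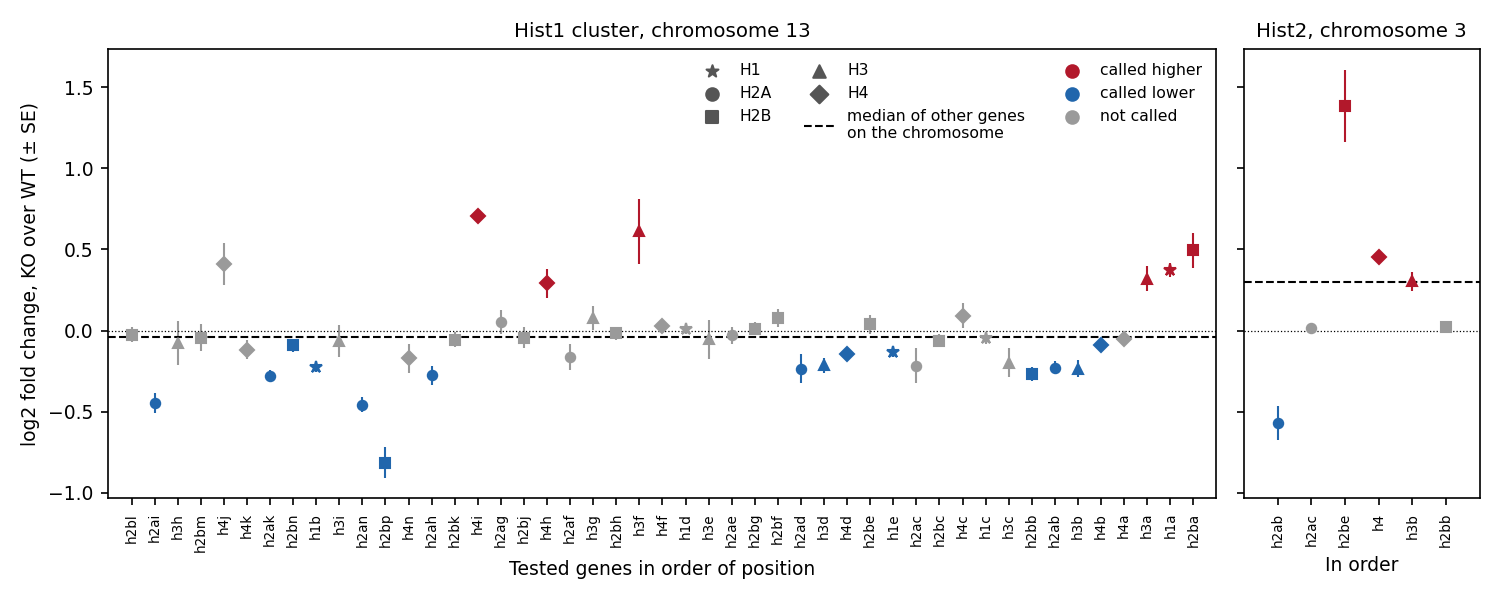
Log2 fold change (KO over WT) with SE of the tested members of Hist1 (left) and Hist2 (right), equally spaced in order of position. Shapes give the histone type, colours the call, and the dashed line the median of the other tested genes on the chromosome, −0.04 for chromosome 13 and 0.30 for chromosome 3. The last 3 Hist1 genes were all called higher.

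Many H2A and H2B genes stand head to head and share a promoter between them. Among members counted on a single strand, there were 10 such pairs with at most 500 bases between the starts, from 177 to 305 bases. Both genes were tested in 9 of them. Members with counted exons on both strands, such as Hist1h2ao and Hist1h2bq, were left out of this search. The log2 fold change of the H2A gene was below that of its H2B partner in 7 of the 9, with a median difference of −0.19 and a range from −1.37 to 0.36. In the pair Hist1h2ai and Hist1h2bl, for example, the H2A gene fell (log2 −0.45) and the H2B gene was not called (log2 −0.03). The widest gap was between Hist2h2ac (log2 0.01) and Hist2h2be (log2 1.38). The differences within pairs were not tested.

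Hist1h2an and Hist1h2bp were 1 of 2 pairs in which both genes fell, and the only one whose H2B gene fell further (log2 −0.46 and −0.81). The other such pair was Hist1h2ak and Hist1h2bn (log2 −0.28 and −0.09). The promoter that Hist1h2bp shares with Hist1h2an is shown because the pair holds the H2A gene with the smallest adjusted p and the H2B gene that fell most. It covers 250 bases before and 50 after the start of Hist1h2bp at chr13:21787238-21787537, plus strand, from RefSeq on GRCm38.p6. Capitals mark 4 CCAAT boxes and 1 TATAAA, on either strand.
Hist1h2bp promoter: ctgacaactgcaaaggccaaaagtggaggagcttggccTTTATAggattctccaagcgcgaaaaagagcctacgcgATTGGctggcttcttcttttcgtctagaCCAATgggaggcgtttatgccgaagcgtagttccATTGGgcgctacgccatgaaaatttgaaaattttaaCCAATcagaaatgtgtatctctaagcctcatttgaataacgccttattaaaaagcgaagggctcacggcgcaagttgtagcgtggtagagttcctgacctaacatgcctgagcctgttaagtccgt
The TATAAA in this window is on the strand of Hist1h2an.

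Promoter letters known from histone genes were common among the members. RefSeq promoters were matched for 62 members. CCAAT, on either strand, occurred in 85.5% of them and in 37.4% of all 32851 promoters, and TATAAA in 56.5% of them and 13.6% of all. The octamer ATTTGCAT, known for histone H2B promoters, occurred in 14 of them, 7 H2A and 7 H2B genes, and in 1.74% of all promoters. The 9 member promoters without CCAAT all belonged to H4 genes, Hist1h4i and Hist4h4 among them, of which the first rose and the second fell. A match of letters is a description and no sign of binding.

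Among the 46 members with a stem-loop found, the 3 most common hairpins each had genes that rose and genes that fell. The other members, such as Hist1h2an and Hist1h2ai, are not covered. For comparison, 30.3% of all tested genes rose and 31.2% fell. The most common hairpin, that of Hist1h2bp, occurred in 26 members of types H1, H2A, H2B and H3, and among the 19 tested 1 rose and 6 fell. The hairpin of Hist1h4d occurred in 7 H4 genes, of which 6 were tested, 1 rose and 2 fell. The hairpin of Hist1h3f occurred in 6 members, and of the 5 tested 1 rose and 1 fell. That of Hist1h4j was shared with Hist1h4b, of which the first was not called and the second fell. Among the 46, the hairpin with GGCCCT arms and a TTTT loop occurred only in Hist1h4i and Hist2h4, the H4 genes that rose most. Hist2h4 lies in Hist2, where other tested genes within 1 Mb had a median log2 fold change of 0.37. The same TTTT loop with GGCTCT arms occurred in Hist2h2ac, which was not called. This was noticed after the values were seen and has no test.

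The 12 members that were not tested hold few or no counts. Hist1h2ao, Hist1h2ap, Hist1h2bq, Hist1h2br, Hist1h4m, Hist2h2aa1, Hist2h3c1 and Hist2h3c2 were listed at 0 in all 6 libraries. Each of them shares counted positions with another member in the table, such as Hist1h4m with Hist1h4n, so a 0 there does not show that the gene was silent. Hist1h1t had 1, 7 and 2 counts in KO and 1, 3 and 1 in WT. Hist3h2ba had 0, 1 and 5 counts in KO and 4, 4 and 4 in WT.

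The other rare members were H2A genes seen in KO alone. Hist1h2aa, next to Hist1h2ba and known like it as a testis gene, had 2, 5 and 2 counts in KO and 0 in each WT library, where the limit that a count of 0 allows is 3 counts. Hist2h2aa2 had 0, 2 and 0 counts in KO and 0 in each WT library. It shares counted positions with Hist2h2aa1, so these counts do not show its level. The tested members hold all but a trace of the histone counts, from 277 to 73564 counts each over the 6 libraries.

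Genes of the histone mRNA machinery changed by small amounts. Of 23 tested, 2 rose and 10 fell, with a median log2 fold change of −0.09, against 0.00 over all tested genes, of which 30.3% rose and 31.2% fell. Cpsf3 had 73.4, 69.9 and 68.8 CPM in KO and 56.0, 55.9 and 58.8 CPM in WT (log2 0.31, SE 0.04, edgeR adjusted p = 1.39e-09). Slbp had 69.0, 69.8 and 65.7 CPM in KO and 73.7, 69.7 and 79.3 CPM in WT (log2 −0.12, SE 0.04, edgeR adjusted p = 0.00985), with overlapping groups. Npat, which activates histone gene transcription, was not called (log2 −0.08, SE 0.04, edgeR adjusted p = 0.0666). Of the Sm protein genes of the list, Snrpb (log2 −0.38, SE 0.04) and Snrpe (log2 −0.33, SE 0.04) fell. Eri1, an exonuclease that binds the stem-loop, fell by 0.32 (SE 0.04), and Sympk, the scaffold of the cleavage complex, rose (log2 0.25, SE 0.03).

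Among histone chaperone genes and S-phase genes most calls were falls. Of 20 tested histone chaperone genes 4 rose and 10 fell, with a median of −0.11. Among them were the histone acetyltransferase gene Hat1 (log2 −0.63, SE 0.03), both FACT subunit genes, Ssrp1 and Supt16 (log2 −0.32 each, SE 0.03), and Nasp (log2 −0.30, SE 0.03), which binds free histones. Of 32 DNA replication and G1/S genes 2 rose and 22 fell, with a median of −0.16, while 31.2% of all tested genes fell. Pcna, the sliding clamp gene, had 134, 138 and 134 CPM in KO and 200.4, 188 and 206 CPM in WT (log2 −0.55, SE 0.03). The helicase genes Mcm4 (log2 −0.46, SE 0.03) and Mcm5 (log2 −0.44, SE 0.03) and the clamp loader gene Rfc4 (log2 −0.74, SE 0.07) fell as well. Whether these differences have a part in the histone levels was not tested.

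Histone genes that are expressed outside S phase gave a level to set the members against. Of 11 tested, 4 rose and 3 fell, while 30.3% of all tested genes rose and 31.2% fell. The median log2 fold change of the 11 was 0.03. H2afz, the gene of the variant H2A.Z, had 216 CPM per kilobase in KO and 188 in WT (log2 0.20, SE 0.03), which is below Hist2h2ac at 277 in KO and 275 in WT. H2afx, the gene of the damage-response variant H2A.X, also rose (log2 0.13, SE 0.05, edgeR adjusted p = 0.0434). H2afy2 (log2 −0.89, SE 0.07) and H2afy (log2 −0.13, SE 0.04), which encode macroH2A proteins, and the linker gene H1f0 (log2 −0.13, SE 0.03) fell.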

How the data were processed

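Gene-level read counts of 3 KO and 3 WT libraries were used as the authors deposited them: raw counts per gene, with symbol and exon coordinates. Per the submitters' processing notes, STAR 2.6.1d, featureCounts 1.6.3 and the mm10 or GRCm38 genome were used. The sources used here give no strand setting and no treatment of multiply aligned reads. Groups come from the sample titles, which call the samples biological replicates. Whether these were separate cultures is not stated, and p-values therefore measure only the spread between samples, which may be technical.

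The whole table was fitted with edgeR 4.0.16 in R 4.3.3 (quasi-likelihood test, robust, TMM, filterByExpr at its defaults, minimum count 10 and total count 15), two-sided, with Benjamini-Hochberg adjustment over 12947 genes and calls under 0.05. Its SE was taken as the absolute log2 fold change over the root of the F statistic. Sums and shares of histone types carry SD and overlap, and no p. The SE of a log2 difference of sums comes from the spread of the libraries. Alternatives were RLE size factors, no filter, DESeq2 1.42.0, voom in limma 3.58.1, a filter of 1 CPM reached by 3 libraries, a replicate block, Rn45s left out, other member sets and each library left out. The fit was tested on simulated counts. Tables and plots were made in matplotlib 3.10.9, NumPy 2.4.6, pandas 2.3.3 and Python 3.11.15. Libraries of a genotype differed by more than counting noise, so none was counted as a duplicate.

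The members, gene lists and tests were chosen with earlier results of these data known. Library values are given for the called members of at least 1 CPM with the 8 largest rises and the 8 largest falls, the member with the most counts per kilobase of each type, and tested members of several exons or at least 1000 counted bases. Of each other list, up to 4 called genes with the smallest adjusted p are named, with Slbp, Npat and Cpsf3. The choice of any other gene named was made with its values in view.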

Additional observations from a re-analysis of the deposited data

How the results depend on the processing

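The number of members called was 8 to 13 higher and 13 to 22 lower when 1 library was left out, against 9 and 17 with all 6. It was 9 and 17 with RLE size factors, 12 and 21 with no count filter, 10 and 16 with a filter at 1 CPM, 10 and 15 with DESeq2, 11 and 21 with limma-voom and 10 and 16 without Rn45s. With a replicate block it was 10 higher and 20 lower. Same-numbered KO and WT libraries deviated from their group means with correlations of −0.04, −0.03 and −0.05, and none correlated best with its own number, so the numbers were not taken as pairs. Of the 26 calls, 19 held in all 14 alternatives and 7 were lost in at least 1. No called member changed sign in any of the 14. Hist1h3e, not called with all libraries, passed the threshold the other way without KO replicate 1 and WT replicate 1, an alternative chosen after seeing the data: it was then 0.10 (adjusted p = 0.0208), against −0.05 with all libraries and adjusted p between 0.0208 and 0.991 over the 14. Leaving out 1 library moved it between −0.13 and 0.05.

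With 1 library left out, the log2 difference of the H2A sums ran from −0.22 to −0.14, of H4 from −0.00454 to 0.0770, of H3 from −0.11 to 0.02, of H2B from −0.06 to 0.01, of Hist1 from −0.0934 to −0.00975 and of Hist3 from −0.0872 to 0.0329. Without KO replicate 1 and WT replicate 1 it was −0.10 for H2A, 0.11 for H4 and 0.0677 for H3. In that setting it was 0.0273 for H2B, 0.0214 for Hist1 and 0.0683 for Hist3. The sign for H4, H3, H2B, Hist1 and Hist3 thus depended on the libraries used. The Hist2 difference of 0.11 was 0.24 without Hist2h2bb and −0.19 less the median of chromosome 3. The H2A share differed by −1.33 points within Hist1. The H2B share, 0.14 points higher in KO, was −0.16 without Hist2h2bb and −0.12 without KO replicate 1 and WT replicate 1, and ran from −0.02 to 0.25 with 1 library left out. The H3 share, −0.13, was 0.26 without that pair and ran from −0.34 to 0.13. The H4 share differed by 2.18 points without Hist1h4d and by 2.01 within Hist1, against 1.66. The causes were not tested. A Hist3 sum without Hist3h2a gave no value, since a library was left at 0. Copies with few counts, such as Hist2h2be and Hist1h3f, are limited by depth, and the split of reads between near-identical copies by a counting rule that is not given here.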
